A study of Mus musculus with 8 samples.

Results

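Cytochrome P450 genes were examined in the whole-kidney transcriptomes of WT and Tsc1/Foxi1-dKO mice. The members were the protein-coding genes whose symbol begins with Cyp and a digit and whose 8 raw counts added up to at least 20 reads, leaving out the vitamin D genes Cyp24a1 and Cyp27b1 and the sterol-synthesis gene Cyp51. This gave 52 genes of the 26893 listed. In all, 77 protein-coding Cyp genes were listed, of which 22 had fewer than 20 reads. Just inside the minimum were Cyp2c38 (21 reads), Cyp26c1 (22 reads) and Cyp2d10 (22 reads), and just outside it were Cyp2c68 (18 reads), Cyp8b1 (14 reads) and Cyp4f39 (13 reads). Of the 52 members, 45 passed the filter on low counts and were tested.

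The study compared 4 WT and 4 dKO C57BL/6 mouse libraries, all from kidneys at 45 days of age. In the dKO mice floxed Tsc1, which encodes a subunit of the complex that restrains mTORC1, was deleted by Cre under the Aqp2 promoter, which is active in principal cells of the collecting duct. These mice also carried a Foxi1 knockout. Foxi1 is the transcription factor that intercalated cells of the collecting duct require. The WT mice carried neither change, so the 2 alterations cannot be told apart here, and single-knockout samples are not analysed here. Whether every library was made from a different mouse is not said in the labels, and the p-values refer to the spread among the libraries.

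P450 enzymes are haem proteins that insert an oxygen atom into fatty acids, sterols, retinoids and foreign compounds, with electrons supplied by a reductase. In the kidney most of them belong to the proximal tubule, where CYP4A enzymes hydroxylate arachidonic acid to 20-HETE and CYP2C and CYP2J enzymes epoxidise it to EETs, lipids that act on tubular transport and vascular tone. Several mouse kidney P450 genes are known to respond to androgens, and are therefore higher in one sex.

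Libraries that stood apart bear on every result. Replicate 1 of dKO had 0 reads of the Y-linked genes Ddx3y, Eif2s3y, Kdm5d and Uty, which added up to 117 to 176 CPM (counts scaled to library size) in each other library. Its level of Xist, the RNA that silences an X chromosome in females, was 490.4 CPM against at most 0.635 CPM elsewhere. The labels give no sex. The library labelled dKO replicate 4 had a Foxi1 level of 45.9 CPM, above the 4 WT libraries (26.6, 27.9, 30.1 and 33.6 CPM), whereas dKO replicates 1 to 3 had 1.33, 1.56 and 1.41 CPM. Intercalated cell markers, 8 genes, summed to 450.5 CPM there, and elsewhere in dKO to no more than 7.21 CPM. The genes called are therefore given with all 8 libraries and without either or both of these libraries. Library depth ran from 14791687 to 24973213 counted reads.

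The label of the gene group was checked against sequence. P450 proteins share a short stretch around the cysteine that binds the haem iron, in which the residues phenylalanine, glycine and arginine stand before the cysteine and glycine after it. For each member, only the transcript with the longest coding sequence (GRCm38, GENCODE M21) was searched. A coding stretch of 30 bases with this pattern was found in that transcript in 47 of the 52 members. It was not found in the searched transcripts of Cyp20a1, Cyp2b10, Cyp2s1, Cyp39a1 and Cyp7b1, whose other transcripts were not searched. The cysteine codon was TGC in 32 members and TGT in 15, and in 38 members the stretch ran across an exon junction. The stretches of the genes on which the results turn are printed 5′ to 3′ with that codon in capitals. Identity over so short a stretch does not itself show that reads could be confused.
Cyp4b1: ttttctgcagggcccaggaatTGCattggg
Cyp2e1: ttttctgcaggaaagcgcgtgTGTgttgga
Cyp2j5: ttctcaatgggaaaaagagctTGTcttgga
Cyp2j13: ttttcaatgggaaagcgagctTGCctcgga
Cyp2d26: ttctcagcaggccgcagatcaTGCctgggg
Cyp2a4: ttttccattggaaaacggtatTGTttcgga
Cyp2a5: ttttccattggaaaacggtatTGTttcgga
Cyp4a10: ttctcaggaggagccaggaacTGCattggg
Cyp4a12a: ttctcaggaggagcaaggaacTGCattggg
Cyp4a12b: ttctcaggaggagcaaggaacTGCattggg
Cyp4a14: ttctcaggaggatcaaggaacTGCattggg
Among the 47 members there were 41 distinct stretches. Cyp2a4 and Cyp2a5 were identical over it, as were Cyp4a12a and Cyp4a12b, and Cyp4a10, Cyp4a31 and Cyp4a32 formed another identical set. Cyp2d26 was identical to Cyp2d9 and Cyp2d22 over these bases, but only 3.81% of the 75-base windows of its transcript also occurred in another gene. Over whole transcripts, 41.3% of the 75-base windows of Cyp4a12b also occurred in another gene, as did 22.1% of those of Cyp2a4 and 19.1% of those of Cyp4a10. Some reads of these genes can thus be assigned to a neighbour or dropped, and they are also given as sums. The genes lay in tandem clusters: 7 Cyp2j genes at chr4:96027534-96664154, 6 Cyp4a genes with Cyp4b1 at chr4:115299046-115647723, 8 genes of the 2A, 2B, 2F, 2S and 2T subfamilies at chr7:25802475-27158668, 5 Cyp2d genes at chr15:82370527-82794294 and 5 Cyp4f genes at chr17:32506462-32947402. Cyp2e1 stood alone at chr7:140763739-140774987 and Cyp7b1 at chr3:18071950-18243338. No member was on chromosome 2 or 11, where Tsc1 and Foxi1 lie.

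In the WT kidneys 3 genes made up most of the P450 transcript level. By deposited FPKM (read counts scaled by gene length and library size, a unit per length that allows genes to be compared), Cyp4b1, a fatty-acid and xenobiotic hydroxylase, was highest at 2135 ± 271 (SD, n = 4). Cyp2e1, which oxidises ethanol, acetone and small solvents, followed at 1046 ± 72.2 FPKM, and Cyp2j5, an arachidonic acid epoxygenase of the mouse proximal tubule, at 616 ± 24.3 FPKM. The ranges of these genes over the WT libraries did not overlap. Cyp2a4, a steroid 15-alpha-hydroxylase, stood at 184 ± 35.5 FPKM. Then came 5 genes whose means lay between 89.3 and 110.4 FPKM, with overlapping ranges: Cyp2j13, Cyp4a31, Cyp2j11, Cyp4a12a and Cyp7b1, the oxysterol 7-alpha-hydroxylase. Of the summed FPKM of the members in WT, 50.5% came from the 14 CYP4 genes, 29.1% from 18 genes of the drug-metabolising families CYP1 to CYP3, 17.7% from 10 CYP2C and CYP2J genes and 2.49% from 4 bile acid and oxysterol genes. The only steroid hormone P450 among the members, Cyp17a1, had a mean of 0.0906 FPKM in WT, and markers of adrenal cortex other than P450s summed to 8.29 to 9.47 CPM in the WT libraries.

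**Figure D1:**
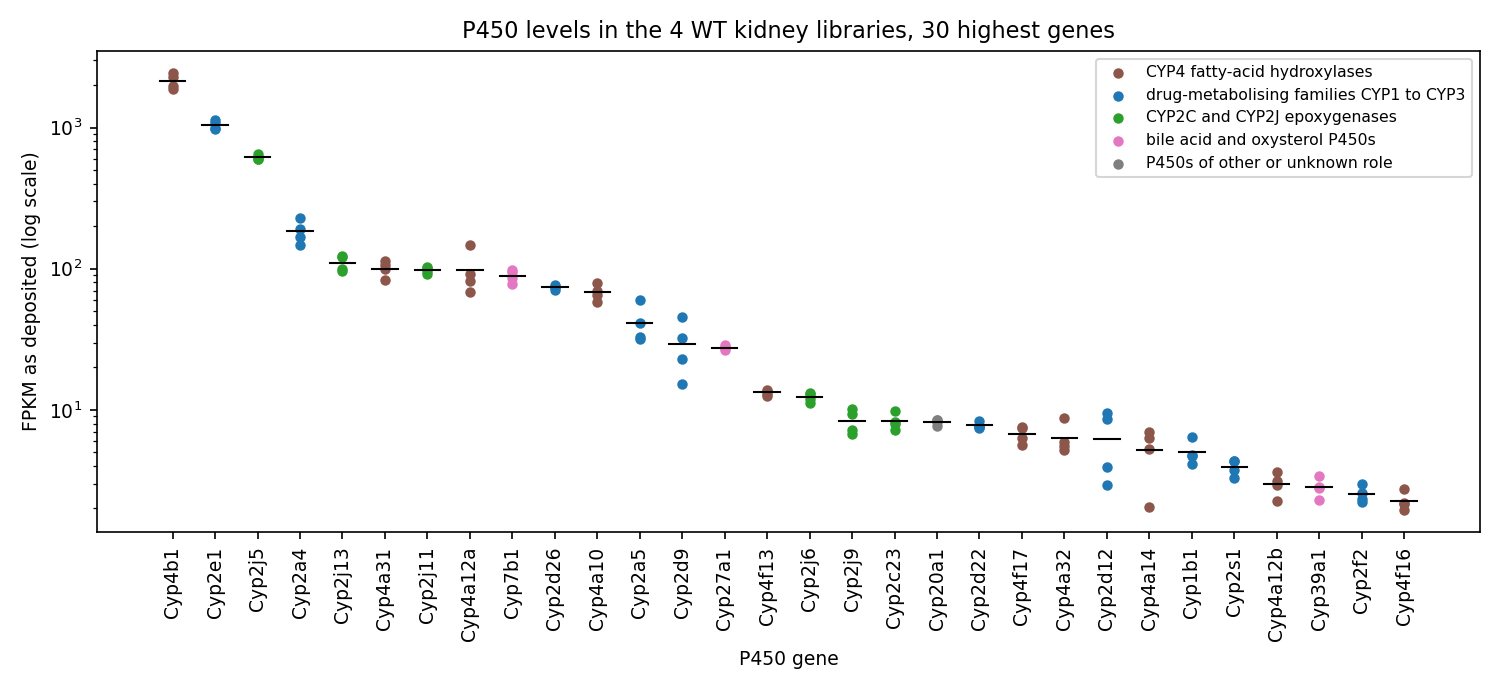
Deposited FPKM on a log scale of the 30 P450 genes with the highest WT mean; each point is 1 of the 4 WT libraries, the line is their mean and colours mark role groups. Cyp4b1, Cyp2e1 and Cyp2j5 stand apart at 2135, 1046 and 616 FPKM.

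The P450 share of counted reads was 1.19%, 1.11%, 1.04% and 1.0% in WT, and it was 0.358%, 1.1%, 0.849% and 0.963% in dKO (replicates in order). Only dKO replicate 1 fell far below the rest. Summed FPKM gave the same picture, with 4829.8 ± 423 in WT (SD, n = 4) against 1485, 4795, 3766 and 4126 in the dKO libraries.

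With all 8 libraries, no P450 gene passed an adjusted p of 0.05 in edgeR's quasi-likelihood test: 0 of 45 tested, when 2.28% of the 15912 genes tested passed it (1.16% higher, 1.12% lower). At an unadjusted p under 0.05 there were 10, of which 8 were higher and 2 lower in dKO, or 10 of 45 where 16.8% of all genes did so. DESeq2 called 5 of the 45 on the same counts (6.10% of all genes), namely Cyp2d26, Cyp4a10, Cyp4a14 and Cyp4f16 higher and Cyp1a1 lower, and limma-voom called 0. Log2 fold changes (dKO over WT) were positive in 27 members and negative in 18, with a median of 0.07 beside 0.0091 for all genes tested. All dKO values lay above all WT values in 4 members (6.06% of all genes) and below them in 7 (6.06%).

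Without dKO replicate 1, 6 of 46 tested members passed (3.90% of all 16110 genes did). The 4 higher in dKO were Cyp2a4, Cyp2d26, Cyp4a12b and Cyp7b1 (1.88% of all genes), and the 2 lower were Cyp2e1 and Cyp2j13 (2.02%). Without the library labelled dKO replicate 4, 2 of 47 passed (2.11% of all genes), namely Cyp4a14 higher (0.969%) and Cyp2b10 lower (1.14%). Cyp2b10 reached the minimum of 20 reads only through WT, where it was higher, so its call is a description only. Without both, 5 of 47 passed (3.19% of all genes), with Cyp2d26, Cyp4a10, Cyp4a12b and Cyp7b1 higher (1.42%) and Cyp2j13 lower (1.76%). Cyp2d26, Cyp4a12b, Cyp7b1 and Cyp2j13 passed in both fits that left out dKO replicate 1. Group values in the 3 dKO libraries other than replicate 1 lay wholly above WT in 8 tested members (7.42% of all genes) and wholly below in 9 (7.44%).

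**Figure D2:**
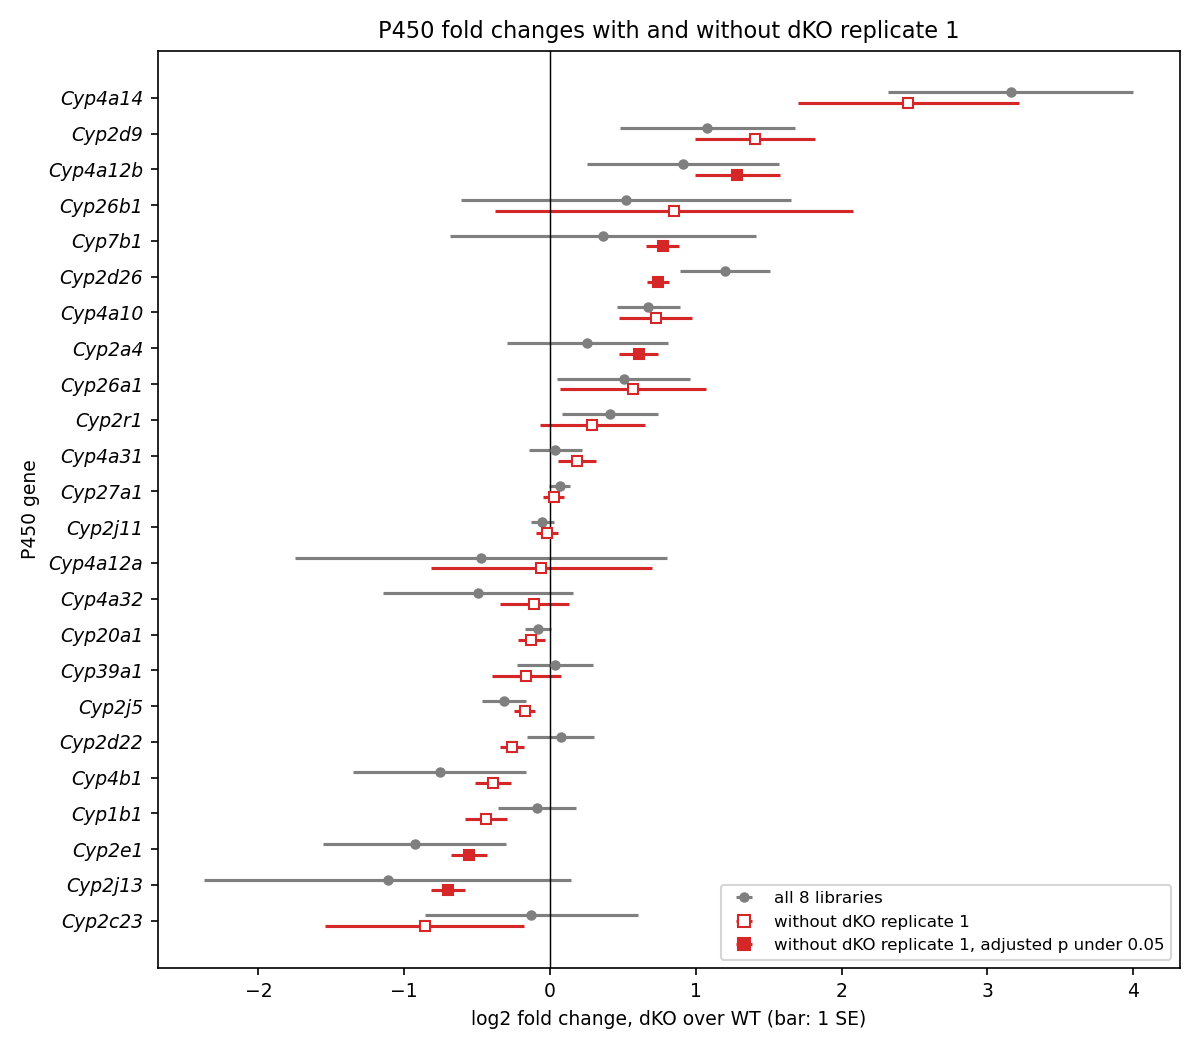
Log2 fold change of dKO over WT (horizontal axis, bars 1 SE) for the 24 tested P450 genes described in full by the rule given under processing, in the edgeR fit of all 8 libraries (circles) and without dKO replicate 1 (squares, filled where the adjusted p is under 0.05). Cyp4f16 and the other genes named outside that rule are not shown. The SE of Cyp2j13 was 1.26 with all libraries and 0.12 without that replicate, and that of Cyp7b1 1.05 and 0.11.

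Among the drug-metabolising families, Cyp2e1 was lower in dKO and Cyp2d26 and Cyp2a4 were higher, when replicate 1 was left out. Cyp2e1 stood at 2453, 2323, 2155 and 2111 CPM in WT and at 142, 1889.5, 1327 and 1391 CPM in dKO (replicates 1 to 4 of each). The groups did not overlap, and the mean of the other 3 dKO libraries was 10.8 times the value of replicate 1. With all 8 libraries the Cyp2e1 log2 fold change was -0.93 (SE 0.63, adjusted p = 0.523), and it was -0.56 (SE 0.12, adjusted p = 0.0287) without dKO replicate 1, with adjusted p from 0.0287 to 0.63 over 19 alternatives. Without both libraries it was -0.49 (adjusted p = 0.104), which did not pass.

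Cyp2d26 stood at 134, 132, 138 and 128 CPM in WT and at 555, 213, 236 and 217 CPM in dKO (replicates 1 to 4 of each). All 4 dKO libraries were above all WT libraries, and replicate 1 was the highest of the 8. Cyp2d26 belongs to the large mouse Cyp2d family. With all 8 libraries the Cyp2d26 log2 fold change was 1.20 (SE 0.31, adjusted p = 0.0924), and it was 0.74 (SE 0.07, adjusted p = 1.92e-04) without dKO replicate 1. Over its 19 alternatives the Cyp2d26 log2 fold change stayed between 0.74 and 1.34, with adjusted p from 1.92e-04 to 0.222. Cyp2d9, a steroid 16-alpha-hydroxylase known to be male-biased in mouse, stood at 122, 60.7, 86 and 40.4 CPM in WT and at 38.1, 278, 179 and 159 CPM in dKO. Its replicates 2 to 4 of dKO lay above WT and replicate 1 below, and it did not pass (log2 fold change 1.08, SE 0.60, adjusted p = 0.433). Without replicate 1 the Cyp2d9 change was 1.41 (SE 0.41, adjusted p = 0.165), which did not pass either. Summed with its near copies Cyp2d10 and Cyp2d12, Cyp2d9 gave a log2 fold change of 1.16 with an SE of 0.40 (adjusted p = 0.194) with all 8 libraries. Cyp2d22 was at 30.2, 32.7, 29 and 29.7 CPM in WT and 51.6, 26.2, 25.6 and 24.5 CPM in dKO, where replicate 1 was again the highest library.

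Cyp2a4 stood at 399.7, 334, 289.6 and 256 CPM in WT and at 65.5, 512, 444 and 508 CPM in dKO (replicates 1 to 4 of each). The dKO replicates 2 to 4 lay above every WT library and replicate 1 below every one. With all 8 libraries the Cyp2a4 log2 fold change was 0.26 (SE 0.55, adjusted p = 0.876), and it was 0.61 (SE 0.13, adjusted p = 0.0306) without dKO replicate 1, with adjusted p from 0.0306 to 0.97 over 19 alternatives. Without both libraries the Cyp2a4 change was 0.58 (adjusted p = 0.0909). Its near copy Cyp2a5, the coumarin 7-hydroxylase, had 126, 65.4, 85.1 and 68 CPM in WT and 75, 186, 157 and 108 CPM in dKO. The reads of Cyp2a4 and Cyp2a5 when summed gave a log2 fold change of 0.34 with an SE of 0.44 (adjusted p = 0.767) with all libraries and 0.65 (SE 0.14, adjusted p = 0.0286) without dKO replicate 1. The rise without replicate 1 was thus called on the summed reads as well.

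Cyp2b10 and Cyp1a1, the classical targets of the xenobiotic receptors CAR and AHR, were scarce in both groups. Cyp2b10 had 76, 35, 20 and 7 reads in the WT libraries and 1, 0, 0 and 5 reads in those of dKO. Over the groups this was 138 against 6 reads. Cyp2b10 did not pass the low-count filter of the 8-library fit, and passed the test as lower without the library labelled dKO replicate 4 (adjusted p = 0.0286) and without WT replicate 4, with adjusted p from 0.0286 to 0.0937 over 7 alternatives. The WT libraries themselves ranged from 0.397 to 4.23 CPM. Cyp1a1 had 14, 19, 19 and 16 reads in WT and 3, 6, 0 and 9 in dKO, or 68 against 18 reads, and the change did not pass (log2 fold change -2.11, SE 0.63, adjusted p = 0.121); Cyp1a1 was chosen for mention after its values were seen. The dKO libraries alone would not have reached the minimum of 20 reads for either gene, so that both are members only through WT, the group in which they were higher, and their difference is given as a description. Cyp1b1, an AHR-responsive P450 of estrogen metabolism, was at 21.4, 24, 24.4 and 33.1 CPM in WT and 39.7, 20.2, 17.2 and 19.7 CPM in dKO, so that replicates 2 to 4 lay below WT and replicate 1 above it (log2 fold change -0.09, SE 0.27, adjusted p = 0.915). Without replicate 1 the Cyp1b1 log2 fold change was -0.44 (SE 0.14, adjusted p = 0.140), which did not pass.

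Among the epoxygenase families, Cyp2j13 was lower in dKO without replicate 1, and 6 of the 9 tested genes had negative fold changes. Cyp2j13 stood at 456, 569, 467 and 581 CPM in WT and at 0.133, 361, 277 and 319.6 CPM in dKO (replicates 1 to 4 of each). The groups did not overlap. In dKO replicate 1 the gene had 3 reads against 18947 in the other 3 dKO libraries, a depth-scaled ratio of 2367 (95% exact counting interval 809.7 to 11477). With all 8 libraries the Cyp2j13 log2 fold change was -1.11 (SE 1.26, adjusted p = 0.724), and it was -0.70 (SE 0.12, adjusted p = 0.00761) without dKO replicate 1 and -0.70 (adjusted p = 0.0254) without both libraries. Over 19 alternatives the adjusted p ran from 0.00761 to 0.82, and the Cyp2j13 fold change was negative in each.

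Cyp2j5 stood at 1403, 1446, 1524 and 1414 CPM in WT and at 801, 1276, 1307 and 1265 CPM in dKO (replicates 1 to 4 of each). All dKO libraries were below all WT libraries, but the difference was small and did not pass (log2 fold change -0.32, SE 0.15, adjusted p = 0.329; without replicate 1, log2 fold change -0.17, SE 0.07, adjusted p = 0.284, with adjusted p from 0.246 to 0.533 over 19 alternatives). Cyp2j11 and Cyp2j6 of the same chromosome 4 cluster were not low in dKO replicate 1 as Cyp2j13 was. Cyp2j11 was at 197, 183, 195 and 175 CPM in WT and 169.9, 186, 176 and 193 CPM in dKO, and Cyp2j6 was at 40.6 to 47.1 CPM in all 8 libraries. Cyp2j9 was lowest in dKO replicate 1, at 31.5, 22.6, 33.7 and 23.9 CPM in WT and 8.41, 27.1, 22.8 and 23.5 CPM in dKO, a value 2.91-fold below the mean of the other 3 dKO libraries. Cyp2j8 was also lowest in dKO replicate 1, at a far lower level, 1.73, 1.12, 1.17 and 1.08 CPM in WT and 0.0885, 0.924, 0.765 and 0.991 CPM in dKO. Its value in replicate 1 rests on 2 reads and was 10.1-fold below the mean of the other 3 dKO libraries, a far smaller gap than that of Cyp2j13. Cyp2c23, the arachidonic acid epoxygenase known earlier in mouse as Cyp2c44, had 21.1, 17.2, 17.7 and 15.6 CPM in WT and 36.2, 3.87, 21.4 and 3.52 CPM in dKO. Its dKO libraries were split, 2 below and 2 above WT, and it did not pass (log2 fold change -0.13, SE 0.73, adjusted p = 0.958).

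The P450 gene with the highest FPKM, Cyp4b1, was below WT in all dKO libraries. Cyp4b1 stood at 5554, 5097, 4414 and 4224 CPM in WT and at 393, 4135, 3089.8 and 3800.0 CPM in dKO (replicates 1 to 4 of each). The values did not overlap, and replicate 1 was 9.35-fold below the mean of the other 3 dKO libraries. The fit did not call it, either with all libraries (log2 fold change -0.76, SE 0.59, adjusted p = 0.588) or without replicate 1 (log2 fold change -0.39, SE 0.12, adjusted p = 0.125), with adjusted p from 0.125 to 0.70 over 19 alternatives.

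The Cyp4a genes, fatty-acid omega-hydroxylases, did not move one way. Cyp4a12a, the main 20-HETE synthase of the male mouse kidney, stood at 361, 222, 165 and 197 CPM in WT and 0.664, 370.3, 39.6 and 272 CPM in dKO. Replicate 1 was nearly devoid of it, replicate 3 was low, and replicates 2 and 4 lay within or just above the WT range (log2 fold change -0.47, SE 1.28, adjusted p = 0.905). Cyp4a12b stood at 8.74, 5.4, 7.46 and 7.09 CPM in WT and at 1.68, 27, 14.2 and 11.4 CPM in dKO (replicates 1 to 4 of each). Replicates 2 to 4 of dKO were above every WT library (log2 fold change 1.28, SE 0.29, adjusted p = 0.047, without replicate 1, with adjusted p from 0.0104 to 0.899 over 19 alternatives). These genes are near copies, and the sum of their reads did not pass. It stood at 369.8, 227, 173 and 205 CPM in WT and 2.35, 397, 53.8 and 284 CPM in dKO (log2 fold change 0.00, SE 0.69, adjusted p = 0.999 without replicate 1). That sum is mostly Cyp4a12a (WT means 236 CPM for Cyp4a12a and 7.18 CPM for Cyp4a12b). It therefore cannot decide whether the Cyp4a12b call depends on how the authors divided the reads.

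Cyp4a14 stood at 5.35, 13.7, 18.2 and 16.3 CPM in WT and at 258, 134, 67.6 and 18.7 CPM in dKO (replicates 1 to 4 of each). Cyp4a14 is a PPAR-alpha target that is known to be higher in female than in male mouse kidney. Every dKO library was above every WT library, but replicate 4 only barely, and replicate 1 was the highest. The fold change was large and imprecise (log2 fold change 3.16, SE 0.84, adjusted p = 0.126), and passed without the library labelled dKO replicate 4 (log2 fold change 3.52, SE 0.58, adjusted p = 0.0387, with adjusted p from 0.00204 to 0.272 over 19 alternatives). That fit keeps replicate 1. Cyp4a14 did not pass without replicate 1 (log2 fold change 2.46, SE 0.76, adjusted p = 0.199) or without both libraries (log2 fold change 2.92, SE 0.52, adjusted p = 0.0666). Cyp4a10, another PPAR-alpha target, was at 147, 123, 166 and 138 CPM in WT and 204, 347, 204 and 162 CPM in dKO (log2 fold change 0.68, SE 0.22, adjusted p = 0.152), and passed without both libraries (log2 fold change 0.94, adjusted p = 0.0362, with adjusted p from 0.0346 to 0.312 over 19 alternatives). Cyp4a31 was at 284, 208, 265 and 250.1 CPM in WT and 174, 345, 255 and 259.9 CPM in dKO, and the groups overlapped. The summed reads of Cyp4a10, Cyp4a31 and Cyp4a32, which share sequence, did not differ past the threshold (log2 fold change 0.29, SE 0.18, adjusted p = 0.474).

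Of the Cyp4f genes, Cyp4f16 had the smallest adjusted p of all members in the 8-library fit and is described after its values were seen. It was at 6.52, 8.29, 6.56 and 5.9 CPM in WT and 15.8, 11.1, 9.1 and 10.5 CPM in dKO, with no overlap (log2 fold change 0.77, SE 0.19, adjusted p = 0.0674; without replicate 1, log2 fold change 0.58, SE 0.15, adjusted p = 0.0627). DESeq2 and the edgeR fit without a low-count filter called it higher, with adjusted p from 0.00764 to 0.188 over 19 alternatives.

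**Figure D3:**
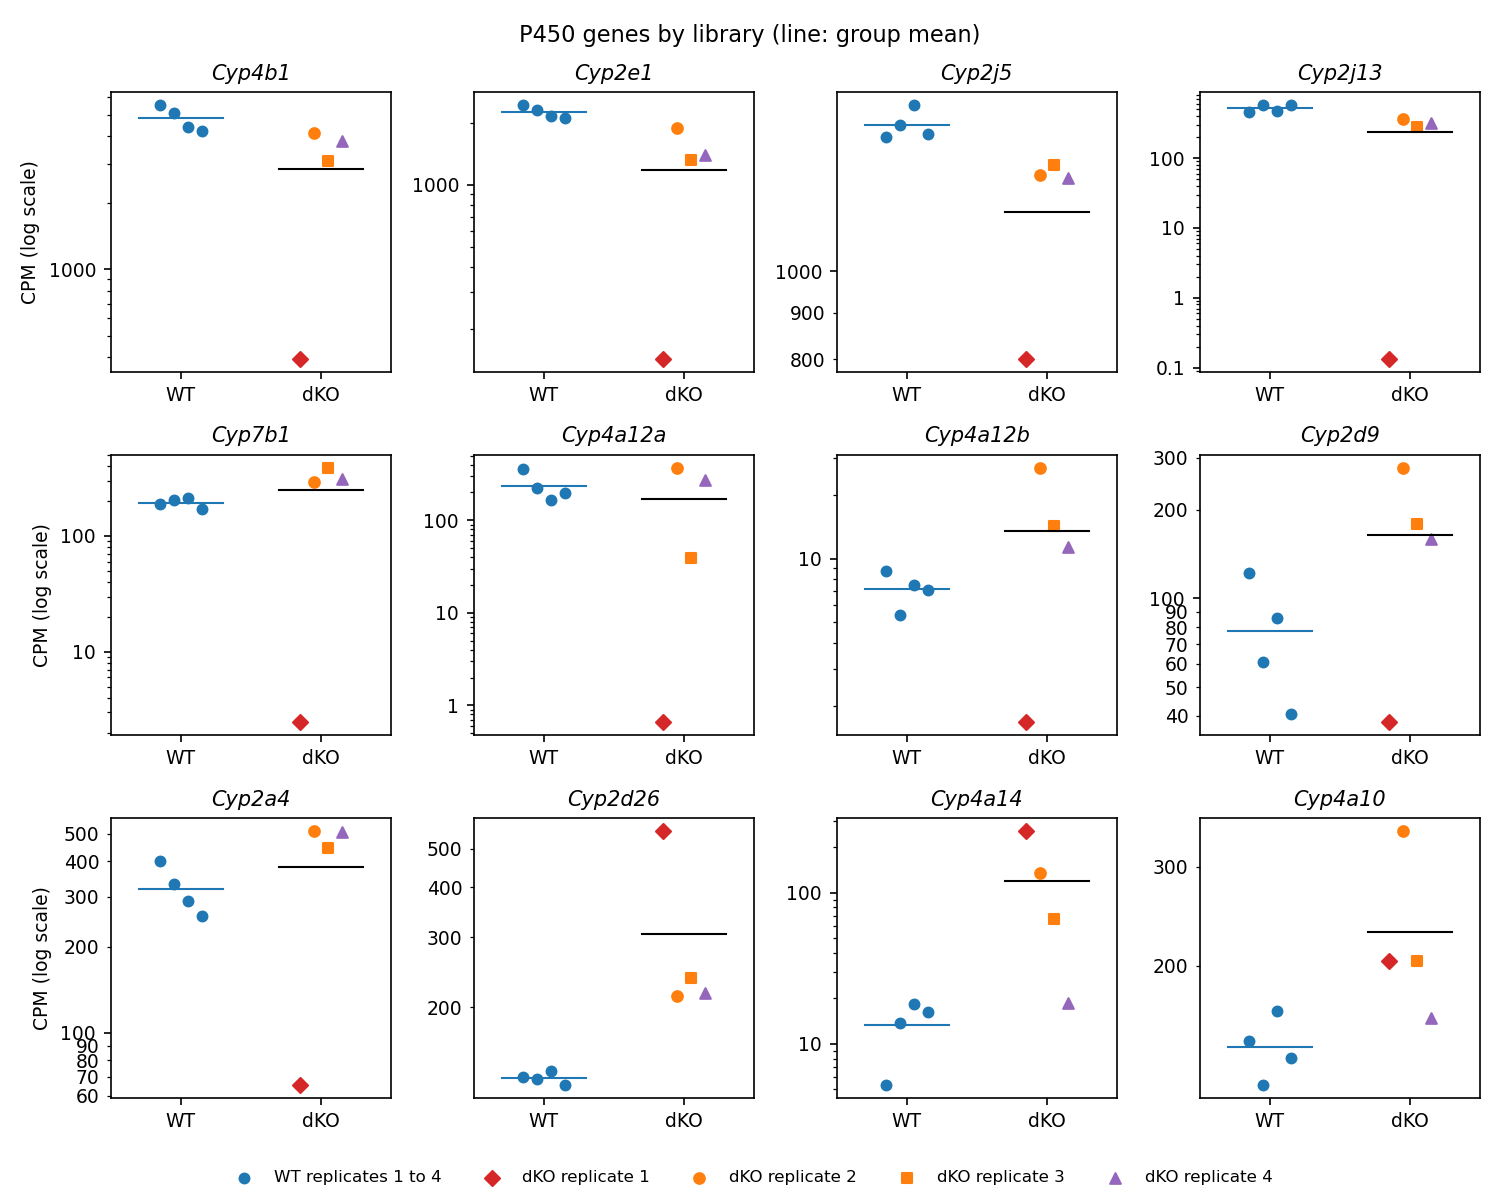
CPM on a log scale, with a scale of its own in each panel, for 12 P450 genes; blue circles are the 4 WT libraries, other symbols the 4 dKO libraries by replicate, and lines the group means. Replicate 1 (diamond) lies lowest for Cyp2j13 at 0.133 CPM and Cyp7b1 at 2.48 CPM, and highest for Cyp2d26 at 555 CPM and Cyp4a14 at 258 CPM.

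Of the 4 bile acid and oxysterol genes, Cyp7b1 was higher in dKO when replicate 1 was left out. Cyp7b1 stood at 188, 205, 213 and 169 CPM in WT and at 2.48, 294, 388 and 311 CPM in dKO (replicates 1 to 4 of each). Replicates 2 to 4 of dKO lay above all WT libraries, whereas replicate 1 was lower than their mean by a factor of 134. With all 8 libraries the Cyp7b1 log2 fold change was 0.36 (SE 1.05, adjusted p = 0.912), and it was 0.77 (SE 0.11, adjusted p = 0.00306) without dKO replicate 1 and 0.82 (adjusted p = 0.00516) without both libraries, with adjusted p from 0.00306 to 0.985 over 19 alternatives. Cyp27a1, the mitochondrial sterol 27-hydroxylase that makes a substrate of CYP7B1, was at 59.4, 58, 60.7 and 62.6 CPM in WT and 68.1, 60.9, 63.2 and 59.8 CPM in dKO (log2 fold change 0.07, SE 0.07, adjusted p = 0.698). Cyp39a1, a 24-hydroxycholesterol 7-alpha-hydroxylase, ranged from 6.98 to 10.4 CPM in WT and from 4.68 to 12.3 CPM in dKO, and did not pass.

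The retinoic acid and vitamin D P450s were scarce. Cyp26b1, which degrades retinoic acid, was at 14.6, 0.963, 3.94 and 2.27 CPM in WT and 1.77, 2.25, 3.38 and 24.1 CPM in dKO, with 1 high library in each group (log2 fold change 0.52, SE 1.13, adjusted p = 0.878). Cyp26a1, of the same function, had 86 reads in all 8 libraries together, and Cyp2r1, a vitamin D 25-hydroxylase, had 178. Neither passed. Cyp17a1, which makes androgen precursors, had 36 reads and was not tested. Cyp20a1, a P450 of unknown substrate, stood at 17.6, 19.5, 19.3 and 18.9 CPM in WT and 19.4, 17.2, 16.7 and 17.8 CPM in dKO (log2 fold change -0.08, SE 0.09, adjusted p = 0.703).

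Replicate 1 of dKO was the lowest of the 8 libraries in 17 of 45 tested members (22.3% of all genes) and the highest in 11 (24%). It was at least 4-fold below the mean of the other 3 dKO libraries in 11 members, where 1.68% of all genes were, and at least 4-fold above in 0 (0.434% of all genes). The 11 were Cyp26b1, Cyp2a4, Cyp2d9, Cyp2e1, Cyp2j13, Cyp2j8, Cyp4a12a, Cyp4a12b, Cyp4a32, Cyp4b1 and Cyp7b1. Set against dKO replicates 2 and 3 alone, 10 of these were at least 4-fold lower (1.5% of all genes), without Cyp26b1, whose mean rests on the library labelled dKO replicate 4 and whose replicate 1 was not the lowest of the 8. The 8 P450 genes listed as male-biased from background knowledge summed to 8744 to 10546 CPM in WT, 1379 CPM in dKO replicate 1 and 6623 to 8632 CPM in dKO replicates 2 to 4. In 7 of these 8 genes replicate 1 was 4-fold or more below the other dKO libraries, the exception being Cyp2j5. Kidney genes other than P450s known for male bias, Kap, Slco1a1, Slc7a13 and Acsm3, summed to 20871 to 23957 CPM in WT, 2422 CPM in dKO replicate 1 and 14484 to 17278 CPM in dKO replicates 2 to 4. Prlr and Slc7a12, known for female bias, summed to 3.26 to 6.3 CPM in WT, 265 CPM in dKO replicate 1 and 10.4 to 38.7 CPM in dKO replicates 2 to 4.

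Some of these non-P450 genes were called when dKO replicate 1 was left out. In that fit 3 of the 4 male-biased genes passed as lower in dKO, where 2.02% of all genes did: Slco1a1, an organic anion transporter (log2 fold change -1.81, SE 0.22, adjusted p = 0.00372), Acsm3, an acyl-CoA synthetase (log2 fold change -0.78, SE 0.08, adjusted p = 3.71e-04), and Kap, the kidney androgen-regulated protein (log2 fold change -0.44, SE 0.10, adjusted p = 0.0343). Over their alternatives the adjusted p ran from 0.00372 to 0.596, from 3.71e-04 to 0.74 and from 0.0343 to 0.604. Kap passed in 1 of its 19 alternatives and was not called without both libraries, whereas Slco1a1 and Acsm3 were. Slc7a13 did not pass in any of these fits. Neither female-biased gene passed without replicate 1, and Slc7a12 passed as higher without both libraries (1.42% of all genes). The 8 male-biased P450 genes did not move one way in that fit, with Cyp2e1 and Cyp2j13 lower, Cyp4a12b and Cyp7b1 higher and 4 not called. Prlr, the prolactin receptor, was at 2.95, 3.05, 4.15 and 5.96 CPM in WT and 146, 7.8, 28.7 and 8.53 CPM in dKO, so that all dKO libraries were above all WT libraries. The part of sex or androgen response in the P450 differences was not tested.

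Segment markers were set beside these values, since the tissue was whole kidney, in which fewer cells of a type and less RNA per cell cannot be told apart. Markers of the S3 segment of the proximal tubule (Slc22a7, Slc22a13, Slc5a8, Atp11a and Slc7a13) summed to 3976 to 4841 CPM in WT, 738 CPM in dKO replicate 1 and 2787 to 3703 CPM in dKO replicates 2 to 4. S1 markers (Slc5a2, Slc5a12 and Gatm) summed to 1681 to 1874 CPM in WT, 2381 CPM in dKO replicate 1 and 1925 to 2229 CPM in dKO replicates 2 to 4. Slc7a13 is also on the male-biased list, and without it the S3 markers summed to 3109 to 3893 CPM in WT, 738 CPM in dKO replicate 1 and 1999 to 2845 CPM in dKO replicates 2 to 4. The S3 markers did not move one way: 2 of the 5 fold changes were positive and 3 negative with all 8 libraries, and Slc22a13 passed as higher there and in all 19 alternatives. Without replicate 1 Atp11a, of S3, passed as lower, and Slc5a2 of S1, the principal cell marker Aqp2 and the liver marker Serpina1a passed as higher (3.90% of all genes in either direction), each in no more than 2 of 19 alternatives. Principal cell markers summed to 453 to 561 CPM in WT, 1564 CPM in dKO replicate 1 and 585 to 680.1 CPM in dKO replicates 2 to 4. Liver markers (5 of the 7 on the list were in the table) summed to 30.5 to 38.1 CPM in WT, 48.7 CPM in dKO replicate 1 and 39.7 to 59.2 CPM in dKO replicates 2 to 4, and adipose markers to 1.93 to 63.3 CPM in WT, 12.8 CPM in dKO replicate 1 and 8.15 to 18.5 CPM in dKO replicates 2 to 4. The part of these cell types in the P450 differences was not tested.

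**Figure D4:**
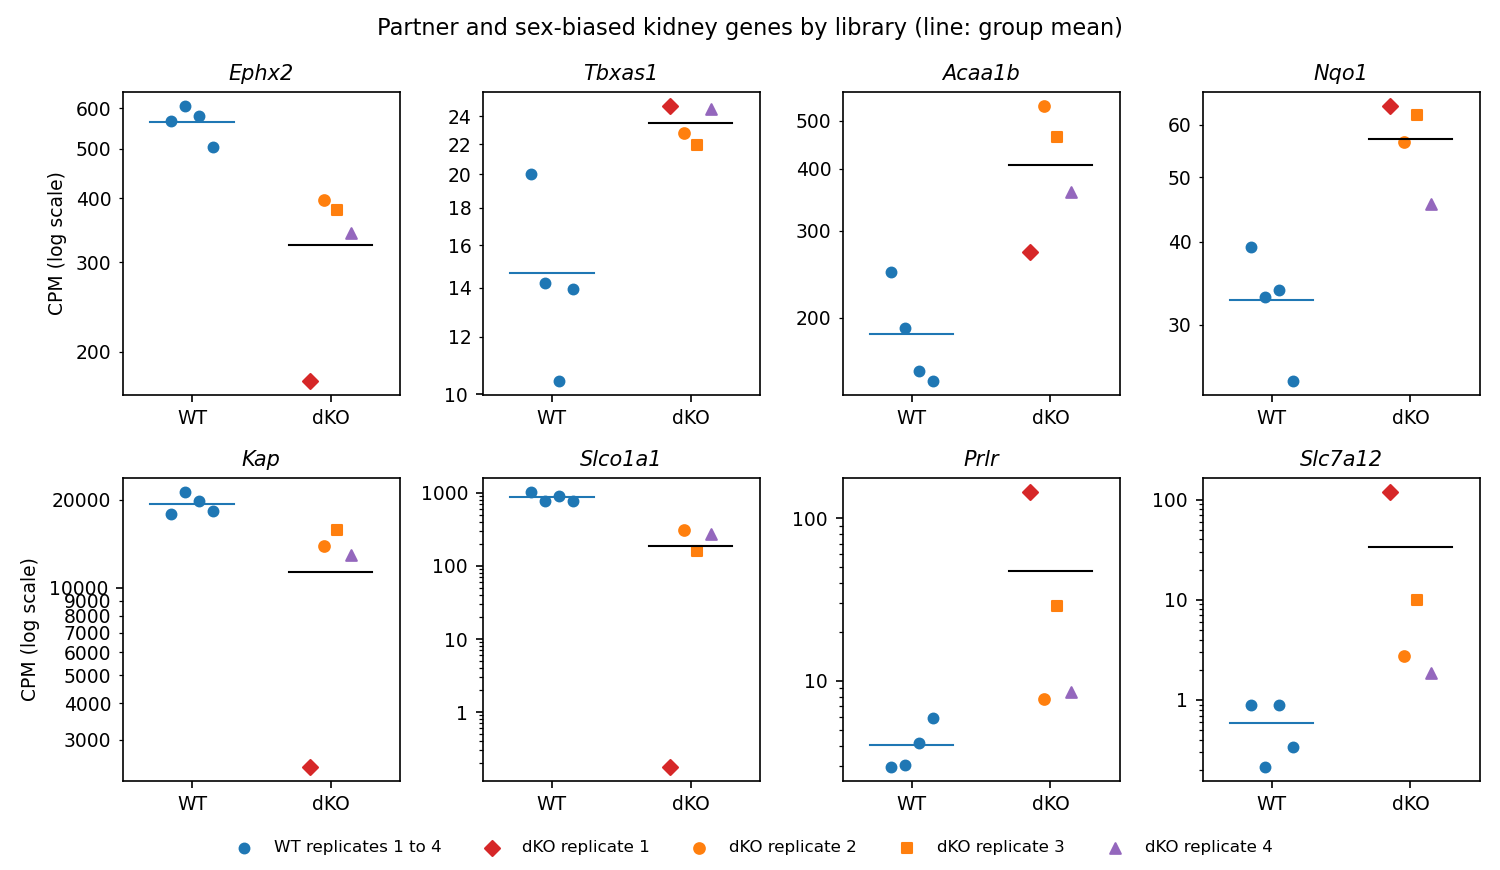
CPM on a log scale, with a scale of its own in each panel, for 4 genes that work with or respond like P450 genes (upper row) and 4 sex-biased kidney genes (lower row); symbols as in the plot of P450 genes by library. In dKO replicate 1 Slco1a1 was at 0.177 CPM and Prlr at 146 CPM, the lowest and the highest of the 8 libraries.

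No gene on the lists that serve or regulate the P450 enzymes passed the test, with all 8 libraries or without either or both of the libraries that stood apart. Of 9 tested redox partners, 0 passed (2.28% of all genes). Por, the reductase of microsomal P450s, was at 501, 515, 487 and 513 CPM in WT and 320.2, 426, 487 and 469 CPM in dKO (log2 fold change -0.24, SE 0.13, adjusted p = 0.373), and Cyb5a, cytochrome b5, had a log2 fold change of -0.48 (SE 0.20). Of 13 genes of haem synthesis and breakdown 0 passed, and Alas1, the first enzyme of haem synthesis, had a log2 fold change of -0.07 (SE 0.22). Of 19 tested transcriptional regulators of P450 genes 0 passed. Hnf4a, the nuclear receptor of proximal tubule identity, had a log2 fold change of -0.21 (SE 0.13). The medians of these 3 lists were -0.13, -0.10 and -0.11, beside 0.0091 for all genes tested.

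Genes downstream of P450 products and genes that share their regulators showed a few calls. Of 5 eicosanoid partners 0 passed with all 8 libraries (2.28% of all genes did). Ephx2, the soluble epoxide hydrolase that breaks down EETs, stood at 567, 607, 581 and 504 CPM in WT and 175, 396, 379 and 342 CPM in dKO, with no overlap, and passed as lower without replicate 1, where 2.02% of all genes did (log2 fold change -0.60, SE 0.09, adjusted p = 0.00359, with adjusted p from 0.00359 to 0.233 over 19 alternatives; with all libraries, log2 fold change -0.81, SE 0.22, adjusted p = 0.101). Tbxas1, the thromboxane synthase and itself a P450 enzyme named outside the Cyp symbols, was at 20, 14.2, 10.4 and 14 CPM in WT and 24.8, 22.8, 21.9 and 24.5 CPM in dKO, again with no overlap, but did not pass (log2 fold change 0.68, SE 0.17, adjusted p = 0.0691, with adjusted p from 0.00748 to 0.187 over 19 alternatives). Of 13 tested PPAR-alpha targets other than P450s, Acaa1b, a peroxisomal thiolase, passed as higher, where 1.16% of all genes did (log2 fold change 1.13, SE 0.23, adjusted p = 0.0355, with adjusted p from 3.92e-05 to 0.119 over 19 alternatives), and 10 of the 13 fold changes were positive. Acaa1b also passed as higher without replicate 1 (1.88% of all genes) and without both libraries. It did not pass without the library labelled dKO replicate 4 (adjusted p = 0.0522). Acot1, of the same list, passed as higher without both libraries (1.42% of all genes) but not with all 8. Of 3 tested AHR targets, Nqo1, a quinone reductase that NRF2 also drives, passed as higher (1.16% of all genes; log2 fold change 0.80, SE 0.15, adjusted p = 0.0235, with adjusted p from 1.09e-04 to 0.0815 over 19 alternatives).

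Promoter sequence is shown for 4 of the 6 members that passed without replicate 1, so that genes called in opposite directions can be compared. RefSeq promoters (GRCm38.p6) matched 38 members, and the 250 bases before the start site held the TATA box letters TATAAA, on either strand, in 11 of 42 member promoters and in 12.4% of all 32851 promoters. The 100 bases before the RefSeq start of 4 of the called genes are printed 5′ to 3′ on the gene's strand, with the motif in capitals (TTTATA is the same motif on the other strand).
Cyp2a4: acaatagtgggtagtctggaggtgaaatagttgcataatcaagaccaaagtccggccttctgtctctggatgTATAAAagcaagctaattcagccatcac
Cyp2d26: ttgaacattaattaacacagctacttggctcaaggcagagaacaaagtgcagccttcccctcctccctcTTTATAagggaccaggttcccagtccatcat
Cyp2e1: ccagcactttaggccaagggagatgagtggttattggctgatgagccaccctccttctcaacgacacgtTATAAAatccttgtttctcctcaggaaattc
Cyp2j13: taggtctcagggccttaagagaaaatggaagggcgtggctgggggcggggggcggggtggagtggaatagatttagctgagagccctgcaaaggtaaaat
They lie at chr7:26307092-26307191, chr15:82794246-82794345, chr7:140763719-140763818 and chr4:96077541-96077640, on the plus strand for Cyp2a4 and Cyp2e1 and on the minus strand for the others. The deposited genes begin further upstream than these RefSeq starts, so that 80 of the printed bases of Cyp2e1, 49 of Cyp2d26, 23 of Cyp2a4 and 6 of Cyp2j13 lie inside the gene as deposited. The motif began 28 bases before the RefSeq start in Cyp2a4 and 31 bases before it in Cyp2d26 and Cyp2e1, and these letters did not occur in the printed bases of Cyp2j13. The printed genes higher in dKO (Cyp2a4 and Cyp2d26) and a gene lower in it (Cyp2e1) all held the motif, which in Cyp2d26 was on the other strand. Cyp4a12b and Cyp7b1, also called higher without replicate 1, had no matched RefSeq promoter and are not printed.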

How the data were processed

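Whole-kidney poly(A) RNA of 4 WT and 4 dKO samples was sequenced on a HiSeq instrument, aligned by the authors (HISAT2 2.0.4) and assigned to genes (HTSeq 0.9.1), with these tools named in the submitters' processing notes. For the genome build the sources used here give no name. The identifiers of all 52 members are in GENCODE M21 (GRCm38), 46 at the same position and 52 overlapping it. The deposited table holds raw counts, which were used for every test. It also holds FPKM, which the authors scaled by gene length and library size, and a signal column per library with the mean signal per group, in which the authors divided counts by size factors. FPKM served for comparing levels between genes, and the signal was not used. The log2 fold changes and p-values of the authors' own comparison are deposited in the same table and were not used. No per-sample column was left unassigned.

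Genes were filtered with filterByExpr, scaled by TMM and tested with edgeR 4.0.16 (quasi-likelihood, robust, two-sided, R 4.3.3), with Benjamini-Hochberg adjustment over all genes tested and a threshold of 0.05. An SE was taken from the log2 fold change and its F statistic. Libraries were TMM-scaled before CPM was computed. DESeq2 1.42.0 and limma 3.58.1 (voom, or log2 of FPKM with a pseudocount of 1 or 0.1), other scalings and filters, and each library left out in turn were alternatives. The fits were tested on simulated data. Near copies were groups of members sharing at least 5% of their 75-base windows, and were also fitted as sums. That fit without dKO replicate 1, the comparison of dKO replicate 1 with replicates 2 and 3 alone and the S3 sum without Slc7a13 were added after the data were seen.

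The genes described in full were those called with all libraries or without either or both of dKO replicates 1 and 4, up to 3 by FPKM in each role group, the sex-biased P450 lists and up to 5 with the largest ratio of dKO replicate 1 to the other dKO libraries in each direction. Of each pathway list, the called genes or up to 2 by FPKM were named. Other genes are said to be named after their values were seen, or complete a count. The members, lists and tests were chosen with earlier results of these data known. Intervals of read ratios cover counting error only. Some values from these lists are not reported here.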

Additional observations from a re-analysis of the deposited data

Results flagged for a closer look

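Over the 52 members, 104 groups of 4 libraries were checked for a library far from the other 3 of its group. The measure was a gap over range above Dixon's critical value for 4, and 11 groups had such a library. The share over all genes was not computed, and groups with very few reads were included, so this count is a description only. Of the genes described in full, 7 were among them. In 5 of these dKO replicate 1 stood apart within the dKO group: Cyp2d26 at 555 CPM, Cyp1b1 at 39.7 CPM and Cyp2d22 at 51.6 CPM were above the other dKO libraries, and Cyp2j5 at 801 CPM and Cyp2a4 at 65.5 CPM were below them. In the other 2 it was the library labelled dKO replicate 4, with Cyp26b1 at 24.1 CPM and Cyp2b10 at 0.275 CPM, both above the other dKO libraries. The Cyp2b10 value rests on 5 reads.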

How the results depend on the processing

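No paired analysis was possible because the sample titles give the WT and dKO libraries no number in common, and the dKO replicate numbers were given in accession order. Members called numbered 0 higher and 0 lower under both other scalings, limma-voom, the 1 CPM filter, non-robust estimation, protein-coding genes only and log2(FPKM + 0.1). DESeq2 called 4 higher and 1 lower, the fit without a filter 1 higher and log2(FPKM + 1) 1 lower, and leaving out dKO replicates 1 and 4 together gave 4 higher and 1 lower. With 1 library left out the members called ranged from 0 to 4 higher and from 0 to 2 lower. Over all genes, 184 higher and 179 lower became 513 and 458 with DESeq2, 57 to 303 higher and 78 to 325 lower with 1 library left out, and 289 lower without dKO replicates 1 and 4. Without dKO replicate 1 there were 303 higher and 325 lower.

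Of 463 values for 24 genes, 419 kept their direction and side of the threshold, 16 passed it and 28 changed sign, none of them past the threshold in either fit. The log2 fold changes that changed sign were -0.0829 (Cyp2a4), -0.98 (Cyp7b1) with limma-voom, -0.0983 (Cyp2a4), -4.79e-04 (Cyp2d22), -0.0200 (Cyp39a1), -2.85e-04 (Cyp4a31), -0.78 (Cyp7b1) with log2(FPKM + 1), -0.10 (Cyp2a4), -0.00669 (Cyp2d22), -0.0448 (Cyp39a1), -5.94e-04 (Cyp4a31), -0.97 (Cyp7b1) with log2(FPKM + 0.1), and -0.93 (Cyp26b1), -0.23 (Cyp2d22), -0.19 (Cyp39a1) without dKO replicates 1 and 4. With 1 library left out they ranged from -0.44 to 0.0571 (Cyp1b1), -1.13 to 1.73 (Cyp26b1), -0.86 to 0.20 (Cyp2c23), -0.26 to 0.18 (Cyp2d22), -0.16 to 0.24 (Cyp39a1) and -0.13 to 0.18 (Cyp4a31). The sum of Cyp4a12a and Cyp4a12b without dKO replicate 1 gave 0.00477. The cause was not tested. Deposited FPKM gave the same order of libraries as CPM in the P450 sums for dKO replicate 1, which was lowest in both. Depth limits Cyp2b10, Cyp1a1 and the other members with few reads.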

Other observations

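Other members had no call in any fit. Cyp2c69, which shares 43.2% of its 75-base windows with other genes, was at 0.668, 0.588, 0.345 and 0.624 CPM in WT and 0.973, 0.751, 1.61 and 1.05 CPM in dKO, all dKO libraries above WT. Cyp4f15 was at 2.45, 2.3, 1.45 and 1.42 CPM in WT and 1.28, 0.809, 1.29 and 0.826 CPM in dKO, all dKO libraries below WT. These genes are named after their values were seen. Cyp2d12 had 37.3, 11.3, 33.2 and 15.3 CPM in WT and 90.5, 65.2, 37.1 and 63.3 CPM in dKO, and the groups overlapped by 1 library of each. Among more widely expressed members the log2 fold changes were 0.21 (SE 0.16) for Cyp2s1, -0.13 (SE 0.10) for Cyp4f13, 0.16 (SE 0.13) for Cyp4f17 and 0.40 (SE 0.17) for Cyp2u1, a fatty-acid hydroxylase of broad expression. The 7 members that were not tested with all libraries had 144 reads (Cyp2b10), 66 reads (Cyp4f18), 36 reads (Cyp17a1), 22 reads (Cyp26c1), 27 reads (Cyp2b23), 22 reads (Cyp2d10) and 21 reads (Cyp2c38) in the 8 libraries together. Cyp4f18, a leukotriene hydroxylase of neutrophils, had 12, 10, 4 and 15 reads in WT and 16, 3, 1 and 5 in dKO.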
